A study of Mus musculus with 40 samples.

Results

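Naive mouse embryonic stem (mES) cells without lamins and without the lamin B receptor (LBR) were compared with wild type (WT) cells by sequencing of total RNA. The comparison takes the 4 libraries of naive quadruple knockout (QKO) cells and the 8 libraries of naive WT cells, 12 of the 40 libraries of the series. The libraries were taken by the genotype and stage in their labels, with earlier results of these data known. WT replicates 1 to 4 were also set against QKO alone, because their depth was close to that of QKO. The lines are described as XY and were grown without feeders in 2i + LIF, a serum-free medium with LIF, 3 µM of the GSK3 inhibitor CHIR-99021 and 1 µM of the MEK inhibitor PD0325901, and were collected at 48 h. QKO cells lacked *Lmna*, *Lmnb1* and *Lmnb2* and carried disrupted *Lbr*. They were made by mutating *Lbr* in lamin triple knockout (TKO) cells and are a single clone. Cells with disrupted *Lbr* and intact lamins (LBRKO) and TKO cells, 4 libraries each in the same medium, served to show which values were shared with a parent or partial genotype. Every library came from its own culture well, so the spread within a genotype is spread between wells of a line and not between independently made lines. The methods of the study describe cells with an additional chromosome 8 and loss of the Y chromosome in the TKO line, and subpopulations with such changes, chromosome 6 included, in WT. Genotype, clone and karyotype cannot be told apart in this comparison.

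Lamins are intermediate filament proteins that form a meshwork under the inner nuclear membrane. LBR is an inner nuclear membrane protein that binds B-type lamins and heterochromatin, and its membrane part is a sterol reductase of cholesterol synthesis. Both tether gene-poor, late-replicating chromatin rich in LINE-1 elements to the nuclear periphery, and in most cells that chromatin is transcribed little. Naive mES cells model the epiblast of the early blastocyst and have low DNA methylation.

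Reads assigned to genes numbered 24.5 to 30.6 M per library in QKO, 27.7 to 33.1 M in WT replicates 1 to 4 and 39.4 to 46.6 M in WT replicates 5 to 8. The first principal component of the 12 libraries held 45.2% of the variance and parted QKO from WT. The second component held 13.9%, split WT replicates 1 to 4 from 5 to 8, and placed WT replicate 7 farthest out. The 2 sets of WT libraries differed between themselves, with 504 genes higher (2.15%) and 436 lower (1.86%) in replicates 5 to 8 than in 1 to 4. The labels name no batch for these sets. Levels are given as counts per 1000000 (CPM) after trimmed-mean (TMM) scaling of the libraries. A gene or transposable element (TE) family rose or fell when its Benjamini-Hochberg adjusted p in edgeR was under 0.05 and its fold change was over 2. The error beside a log2 fold change is its SE, with n = 4 for QKO and n = 8 for WT.

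The sequences upstream of 4 genes that the results return to are shown first, 2 from genes that rose (*Akr1c18*, *Kdm5d*) and 2 from genes that fell (*Krt42*, *Alg13*). Each run is the 250 bases before the annotated start in RefSeq on GRCm38.p6, 5′ to 3′ on the strand of the gene, with CG dinucleotides, the sites of DNA methylation, in capitals. The *Akr1c18* run lies at chr13:4150647-4150896 (minus strand), the *Kdm5d* run at chrY:897538-897787 (plus), the *Krt42* run at chr11:100269952-100270201 (minus) and the *Alg13* run at chrX:144317716-144317965 (plus).
Akr1c18: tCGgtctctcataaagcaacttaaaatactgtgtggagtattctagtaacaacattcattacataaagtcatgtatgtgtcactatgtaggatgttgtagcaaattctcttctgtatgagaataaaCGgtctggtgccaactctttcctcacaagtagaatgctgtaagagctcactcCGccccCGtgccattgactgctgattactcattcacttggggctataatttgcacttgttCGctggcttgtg
Kdm5d: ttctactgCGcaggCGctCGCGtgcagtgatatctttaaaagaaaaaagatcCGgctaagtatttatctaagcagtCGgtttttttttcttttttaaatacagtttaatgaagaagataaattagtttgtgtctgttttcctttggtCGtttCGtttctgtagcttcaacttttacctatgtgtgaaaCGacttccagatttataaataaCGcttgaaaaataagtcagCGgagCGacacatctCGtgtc
Krt42: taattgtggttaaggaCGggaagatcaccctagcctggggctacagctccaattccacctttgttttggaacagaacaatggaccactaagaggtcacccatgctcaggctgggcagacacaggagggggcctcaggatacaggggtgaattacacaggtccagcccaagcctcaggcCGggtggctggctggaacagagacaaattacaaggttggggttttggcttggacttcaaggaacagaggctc
Alg13: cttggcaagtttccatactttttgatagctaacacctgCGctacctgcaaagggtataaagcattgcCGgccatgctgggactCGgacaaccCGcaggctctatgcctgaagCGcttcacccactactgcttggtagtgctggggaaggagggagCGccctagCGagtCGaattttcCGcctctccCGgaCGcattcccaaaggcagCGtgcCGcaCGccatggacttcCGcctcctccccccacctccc
The *Akr1c18* run holds 5 CG, and 49.6% of 32851 RefSeq promoters of that length hold at most as many. The *Krt42* run holds 2 CG (29.0% hold at most as many). The runs of *Kdm5d* and *Alg13* hold 13 and 15 CG, which 31.5% and 27.3% of promoters reach. The median promoter held 6 CG. These 4 genes were picked for display, so they cannot show whether CG content went with the direction of change. No methylation was measured here.

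The targeted genes followed the labels. *Lmnb1*, which encodes lamin B1, measured 15.5, 12.0, 14.3 and 13.6 CPM in QKO replicates 1 to 4 against 481 to 546 CPM in WT (median 514). *Lmnb2*, the lamin B2 gene, measured 2.11, 2.15, 3.77 and 2.30 CPM against 93.2 to 116 (median 108). *Lmna*, the gene of lamins A and C, kept 17.1 to 21.0 CPM against 45.1 to 71.5 in WT and fell by 1.60 ± 0.10 on the log2 scale (adjusted p = 8.24e-17). Counts were summed over whole genes, so a transcript with a deleted or mutated part is still counted. *Lbr* measured 238, 237, 236 and 239 CPM in QKO and 347 to 407 in WT, with no overlap, and its log2 difference of -0.65 ± 0.14 did not reach 2-fold. *Lbr* was also lower in QKO than in TKO (-0.57, adjusted p = 0.0058), again short of 2-fold. The pattern in each library is drawn in the plot of 14 genes by library.

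**Figure D1:**
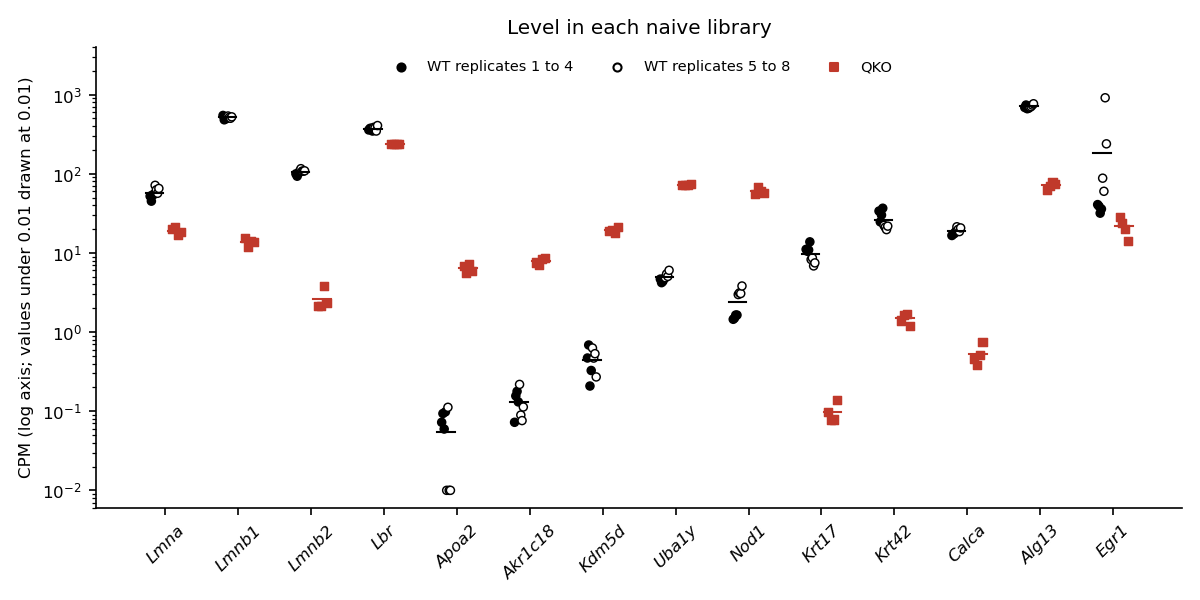
CPM of 14 genes in each naive library on a log axis, with WT replicates 1 to 4 as filled circles, WT replicates 5 to 8 as open circles, QKO as squares, and the group mean as a bar. QKO and WT do not overlap for any of the 14 genes, and *Egr1* spreads from 31.8 to 913 CPM within WT.

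Between QKO and WT, 2478 of 23399 genes tested were higher in QKO (10.6%) and 1558 were lower (6.66%). Against WT replicates 1 to 4 the numbers were 2708 (11.6%) and 1555 (6.65%). The median log2 difference of all genes was 0.01. Large changes were split about evenly, with 628 genes higher and 606 lower past 4-fold, and 100 higher and 131 lower past 16-fold. Among the 10954 genes whose higher group reached 5 CPM, 373 rose and 547 fell. Without a test, 2852 genes (12.2%) were higher in every QKO library than in every WT library and 3733 (16.0%) were lower in every one.

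**Figure D2:**
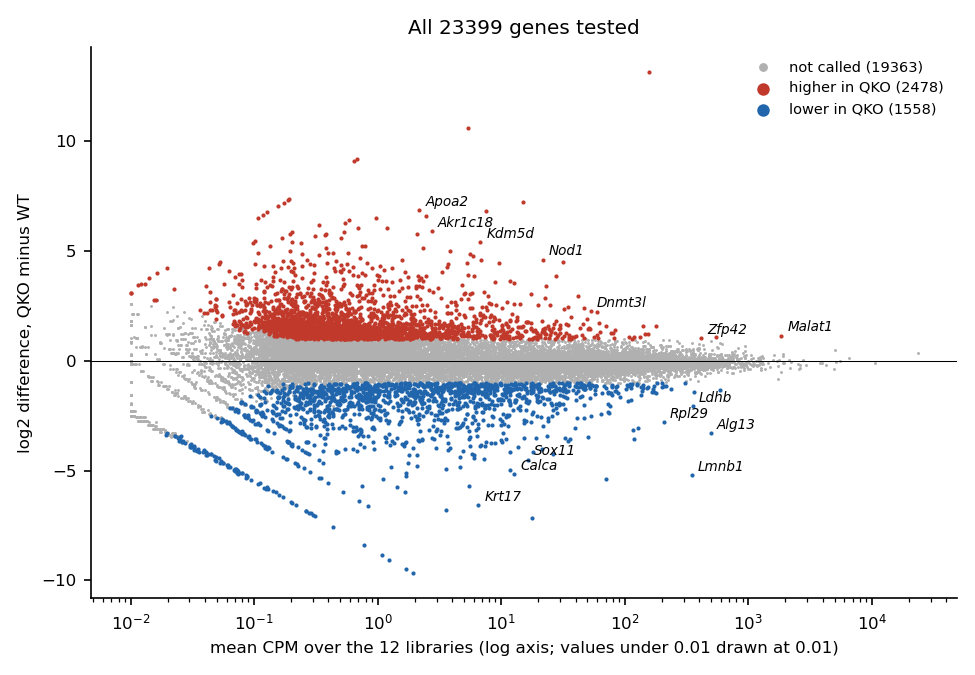
Log2 difference (QKO minus WT) of each of the 23399 genes tested against its mean CPM over the 12 libraries (log axis, means under 0.01 drawn at 0.01), with the 2478 higher and 1558 lower genes coloured and some named. Genes that rose are dense between 0.1 and 1 CPM, and *Lmnb1* and *Alg13* stand out among the abundant genes.

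What rose and what fell differed in gene type and in level. Of 3253 long non-coding RNA (lncRNA) genes tested, 773 rose (23.8%) and 127 fell (3.9%). Of 15477 protein-coding genes, 941 rose (6.08%) and 1332 fell (8.61%). Processed pseudogenes, reverse-transcribed copies of messenger RNAs, rose in 228 of 2238 cases (10.2%) and fell in 37 (1.65%). By mean level over the 12 libraries, genes at 0.1 to 1 CPM rose in 1627 of 7739 cases (21.0%) and fell in 570 (7.37%). Genes at 1 to 10 CPM were split evenly, with 596 of 5304 higher (11.2%) and 565 lower (10.7%), and genes at 10 CPM or more rose in 160 of 9075 cases (1.76%) and fell in 305 (3.36%). A floor of 1 CPM in at least 4 libraries kept 17522 genes, of which 1422 rose and 1206 fell. Reads far from genes stood at 0.0136 CPM per kb in QKO. Of the 2478 genes that rose, 11 were at or under that level per kb of exon and 306 were under 10 times that level. Of all 23399 genes tested 3624 were under 10 times that level, and of the 1558 that fell, 734. The median of the genes that rose was 0.644 CPM per kb. A gene called higher holds reads in QKO by the call itself, so these counts cannot show where the reads came from.

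**Figure D3:**
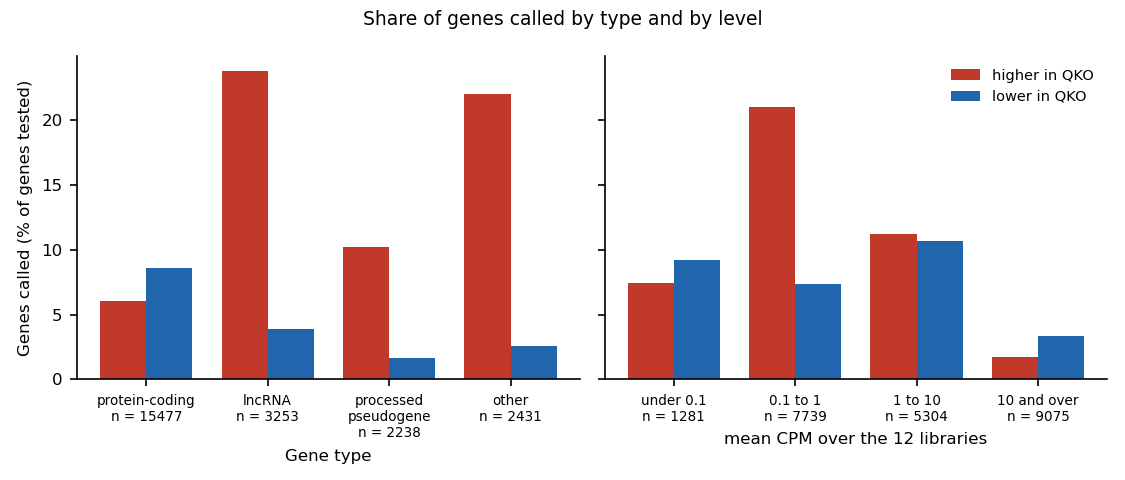
Percent of tested genes that rose or fell in QKO, by annotated gene type (left) and by mean CPM over the 12 libraries (right), with the number tested under each pair of bars. Rising genes outnumber falling genes among lncRNAs and at 0.1 to 1 CPM, and falling genes outnumber rising genes among protein-coding genes and at 10 CPM and over.

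The genes that rose lay in surroundings with more LINE-1 sequence. The median share of LINE-1 in the surrounding 300 kb was 10.4% for the 941 protein-coding genes that rose, 5.98% for the 1332 that fell and 5.87% for all 15477 tested. Among protein-coding genes with a WT mean under 1 CPM it was 10.4% for the 635 that rose and 7.83% for all 3334. Neighbours also moved together. Of genes that rose, 36.7% had a tested gene that rose directly before or after them, against 17.3% of the other genes tested. For genes that fell the shares were 32.6% and 11.0%. Overlapping transcripts are among these neighbours, and whether reads were counted by strand is not given in the sources used here. Windows of 1 Mb (GRCm39) showed where this was dense. On chromosome 12 at 109 to 110 Mb, the imprinted cluster of maternally expressed non-coding RNAs, 26 of 52 tested genes rose and none fell. *Mirg*, the microRNA host transcript of that cluster, measured 66.3, 69.3, 71.0 and 77.7 CPM in QKO and 19.9 to 51.1 in WT (log2 difference 1.17 ± 0.14, adjusted p = 1e-08). Its neighbours *Meg3* and *Rian* overlapped WT and did not pass the thresholds (0.58 and 0.36), and neither passed the thresholds between QKO and TKO (-0.19 and -0.27, adjusted p = 0.517 and 0.175).

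Other dense windows held multigene families. On chromosome 13, 13 of 28 genes rose at 62 to 63 Mb and 11 of 45 at 67 to 68 Mb, beside 10.6% of all genes. Both windows lie in clusters of zinc-finger genes of the kind that silence transposons. Only some of the genes that rose there carried a *Zfp* name, in the first window *Zfp934* alone. *Zfp934* measured 25.6 to 27.6 CPM in QKO against 6.15 to 11.2 in WT (1.59 ± 0.10), and *Zfp953* 27.4 to 31.2 against at most 17.6 (1.07 ± 0.13, and 0.88 against WT replicates 5 to 8). Over the genome, 18 of 395 tested *Zfp* genes rose and 11 fell, which is under the 10.6% for all genes. On the X chromosome at 102 to 103 Mb, the X-inactivation centre, 9 of 25 genes rose. *Xist*, the RNA that coats the inactive X in female cells, measured 8.71, 7.93, 15.7 and 11.2 CPM in QKO and 1.67 to 12.7 in WT, so the groups overlapped. Its log2 difference of 1.25 ± 0.31 dropped to 0.67 against WT replicates 5 to 8, and reads of *Xist* and of its antisense partner *Tsix* may be mixed. At chromosome 9, 88 to 89 Mb, 7 of 14 genes rose, with copies of the *Trim43* family among them.

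Chromosomes 6 and 8, which the study's methods name for changes in number, had median log2 differences of -0.09 and 0.07 over all their tested genes, beside 0.01 for the genome. Among genes with a mean of at least 1 CPM over the 12 libraries, the median was -0.21 for the 688 on chromosome 6 and 0.00 for the 810 on chromosome 8, beside -0.08 for all 14379, and the other autosomes and the X lay between -0.12 and -0.01. The 14 tested genes of the Y chromosome had a median of 1.5. The part of karyotype in these values was not tested.

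The largest increases among genes of at least 5 CPM in QKO were in genes with next to no RNA in WT. *Apoa2*, an apolipoprotein of high-density lipoprotein made by liver, measured 5.63 to 7.31 CPM in QKO and at most 0.112 in WT (6.87 ± 0.36, adjusted p = 2.19e-19). *Stk33*, a serine/threonine kinase gene, measured 8.45, 6.86, 7.07 and 6.76 CPM against at most 0.178 (6.61 ± 0.52). *Akr1c18*, the enzyme that inactivates progesterone, measured 7.57, 7.09, 8.40 and 8.71 CPM against 0.0724 to 0.218 (5.90 ± 0.43, adjusted p = 4.91e-15). These genes stood apart from WT in every library. *Serpina3m*, a serine protease inhibitor gene in a cluster of near copies, measured 5.97 to 6.30 CPM against at most 0.228 (5.80 ± 0.41). *Tmem132d*, a membrane protein gene best known in brain, measured 16.1, 16.5, 16.4 and 17.0 CPM against 0.0724 to 1.09 (4.77 ± 0.29).

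The direct contrast with TKO sorted these genes into genes already high in TKO and genes that rose further. *Apoa2* and *Nod1* did not pass the thresholds between QKO and TKO (0.24 and 0.28, adjusted p = 0.631 and 0.264). *Nod1*, a sensor of bacterial peptidoglycan, had means of 49.7 CPM in TKO and 2.40 in WT, and 54.8, 67.9, 60.8 and 57.5 CPM in QKO. *Platr15*, a lncRNA, rose from a mean of 1.45 CPM in TKO to 19.7, 27.8, 20.9 and 20.8 CPM in QKO (QKO minus TKO 3.94, adjusted p = 5.16e-11). *Stk33*, *Akr1c18*, *Serpina3m* and *Tmem132d* were also higher in QKO than in TKO, by 3.81, 2.47, 2.64 and 3.85 on the log2 scale. *Tdpoz8*, a member of a family of near-identical copies and therefore uncertain, was higher than TKO by 3.11. Over all genes 956 were higher in QKO than in TKO (4.09%) and 496 lower (2.12%), and against LBRKO 2274 were higher (9.72%) and 1939 lower (8.29%). For TKO against WT the numbers were 628 higher (2.68%) and 881 lower (3.77%), and for LBRKO against WT 716 (3.06%) and 761 (3.25%). These comparisons share libraries, and their counts are given side by side only.

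The abundant genes that rose changed by about 2-fold to 3-fold. *Malat1*, an abundant nuclear lncRNA, measured 2712, 2867, 2994 and 3102 CPM in QKO and 971 to 1953 in WT (1.16 ± 0.14). *Klhl13*, an adaptor of a ubiquitin ligase, measured 320 to 324 CPM against 98.2 to 122 (1.60 ± 0.08). *Mme*, a membrane metallopeptidase, rose by 1.61 ± 0.12, *Gabarapl2*, an autophagy gene, by 1.23 ± 0.08, *Fancm*, a DNA repair helicase, by 1.07 ± 0.08 and *Kdm2b*, a demethylase bound to CpG islands, by 1.01 ± 0.05. Against WT replicates 5 to 8 *Fancm* and *Kdm2b* differed by 0.92 and 0.98. *Ttn* and *Kcnq1ot1*, both of them very long transcription units, depended on QKO replicate 3. *Ttn* measured 189, 225, 391 and 196 CPM and *Kcnq1ot1* 127, 153, 252 and 143 CPM, and their log2 differences of 1.21 and 1.11 became 0.93 and 0.86 without that library and 0.73 and 0.69 against WT replicates 5 to 8.

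The deepest falls were in genes clearly transcribed in WT. *Krt17*, a keratin of stressed epithelium, measured 0.0975, 0.0766, 0.0785 and 0.137 CPM in QKO and 6.85 to 13.8 in WT (-6.57 ± 0.31, adjusted p = 7.73e-21). *Calca*, the calcitonin gene, measured 0.455, 0.383, 0.511 and 0.755 CPM against 16.6 to 21.4 (-5.15 ± 0.16). Both stood between WT and QKO in TKO, with means of 2.71 and 5.98 CPM, and were lower in QKO than in TKO by 4.73 and 3.49 on the log2 scale. *Rap1gap2*, a Rap GTPase activator, fell by 4.97 ± 0.21, *Scnn1a*, an epithelial sodium channel subunit, by 4.93 ± 0.31, and *Gfra2*, a neurturin co-receptor, by 4.81 ± 0.32. *Tdg-ps2* and *H2-T5* fell by 7.18 and 6.80 (*H2-T5* by 8.43 without QKO replicate 4), but the first is a pseudogene of *Tdg* and the second belongs to a cluster of class Ib histocompatibility genes, so their reads may be shared with copies.

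Among the 10 genes of highest WT level that the naming rule took from those that fell, *Alg13* changed most after *Lmnb1*. It encodes a subunit of the glycosyltransferase that adds the second sugar of N-glycans, and it measured 63.2, 69.8, 78.8 and 75.0 CPM in QKO and 664 to 767 in WT (-3.31 ± 0.08, adjusted p = 3.97e-30). TKO stayed at a mean of 639 CPM and LBRKO at 723, and QKO was lower than TKO by 3.16 on the log2 scale (adjusted p = 6.6e-28). The drop was seen in all 4 wells of the QKO clone. *Ldhb*, a lactate dehydrogenase subunit, measured 107 to 122 CPM against 410 to 549 (-2.07 ± 0.09) and was also lower than in TKO (-1.53). *Hmga1*, an architectural chromatin protein, fell by 1.40 ± 0.08, *Ptk7*, a WNT co-receptor, by 1.29 ± 0.08, *Slc2a1*, a glucose transporter, by 1.14 ± 0.12 and *Phgdh*, the entry enzyme of serine synthesis, by 1.14 ± 0.07. *Rpl29* and *Rps3a1*, which have many pseudogene copies, fell by 2.80 and 1.33 but did not differ from TKO past the thresholds (0.03 and -0.12).

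Few genes of the nuclear envelope passed the thresholds beyond the targeted genes. In the first list below 5.56% fell, near the 6.66% of all genes, and 10.6% of all genes rose. Of 18 tested genes of the inner nuclear membrane and of the LINC complex, which couples the nucleus to the cytoskeleton, 1 fell and none rose. That gene was *Syne1*, a nesprin, at 2.61 to 4.83 CPM against 5.80 to 9.23 (-1.07 ± 0.16, and -0.87 against WT replicates 1 to 4). None of 27 nuclear pore genes and none of 29 genes of H3K9 methylation and HP1 passed the thresholds, by edgeR or by DESeq2, and at an unadjusted p under 0.05 the count past 2-fold was 0 as well. Within the H3K9 list *Setdb1*, a histone methyltransferase of retroelement silencing, measured 256 to 275 CPM in QKO and 143 to 177 in WT (0.72 ± 0.06, adjusted p = 3.18e-14), and *Wiz*, a partner of the G9a and GLP methyltransferases, 66.8 to 70.4 against 112 to 135 (-0.85 ± 0.07). Both differences were under 2-fold with no overlap between groups.

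**Figure D4:**
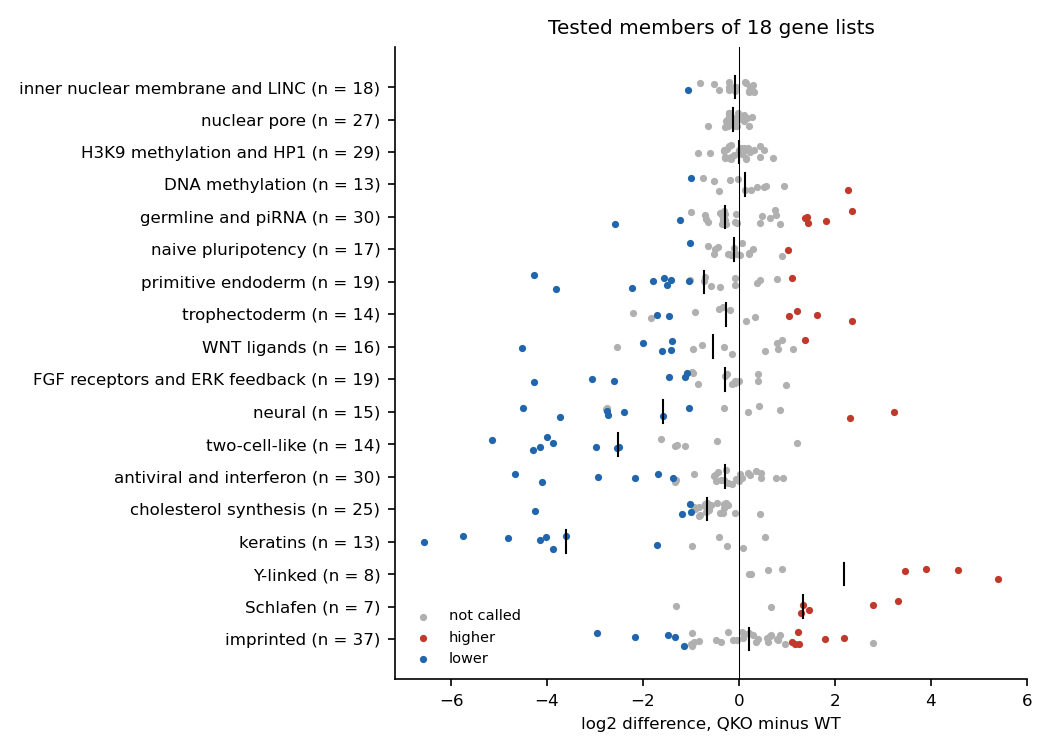
Log2 difference (QKO minus WT) of each tested member of 18 gene lists, with members that rose in red, members that fell in blue and the median as a bar. Nuclear pore genes sit around 0, and keratins, primitive endoderm and neural genes reach far to the left.

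Most regulators of the naive state did not pass the thresholds. *Pou5f1* and *Sox2*, the core pluripotency factors, measured 339 to 380 and 298 to 333 CPM in QKO and overlapped WT (-0.09 and -0.04). *Nanog* measured 829, 826, 812 and 808 CPM against 709 to 885 (0.02 ± 0.15, adjusted p = 0.945). *Esrrb*, *Klf4*, *Tfcp2l1* and *Prdm14*, transcription factors of the naive network, had log2 differences of -0.10, 0.22, 0.30 and -0.16, none past the thresholds. *Zfp42*, a marker of naive cells, measured 665, 626, 615 and 630 CPM against 278 to 376 and rose by 1.03 ± 0.13, a call lost against WT replicates 5 to 8 (0.93). *Tbx3*, another naive factor, measured 377 to 394 CPM against 176 to 267 (0.90 ± 0.15) and did not reach 2-fold. *Lin28a*, an RNA-binding protein that blocks let-7, fell by 1.26 ± 0.13, and by 0.79 against WT replicates 1 to 4. Of 17 naive genes tested 1 rose (5.88%) and 1 fell (5.88%), and of 9 core genes none rose and 1 fell (11.1%). Of all genes 10.6% rose and 6.66% fell, so these counts do not set the lists apart.

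Several signalling targets depended on which WT libraries were used. *Egr1*, an immediate early target of ERK, measured 28.5, 23.7, 20.3 and 14.2 CPM in QKO, and WT ran from 31.8 to 913 with a median of 50.5. Its log2 difference was -3.06 ± 0.69 against all WT, -3.91 against replicates 5 to 8 and -0.77 against replicates 1 to 4, and it was -1.82 without WT replicate 7. *Fos* followed the same course (-2.61, -3.36, -0.92 and -1.91). The list of FGF receptors and ERK feedback genes had 6 of 19 lower against all WT and 2 of 19 against replicates 1 to 4. Of all genes 6.66% and 6.65% were lower in these comparisons. *Fgfr2* was lower against both sets (-4.25 and -4.29), with 0.314 to 0.552 CPM in QKO and 7.43 to 10.3 in WT. The annotated span of *Fgfr2* overlaps 71 other genes, and its mean was 1.84 CPM in TKO and 1.62 in LBRKO. Targets of WNT behaved like *Egr1*: *Lef1* differed by -2.16 against all WT and -0.34 against replicates 1 to 4, and *Sp5*, *T* and *Gbx2* changed sign, from -1.63, -1.83 and -1.01 to 0.12, 1.23 and 0.19. *Id1* and *Id2*, targets of BMP, fell by 1.36 and 1.93, *Id1* by 0.72 against replicates 1 to 4. *Id3*, of the same family, overlapped WT and changed sign, from -0.53 (adjusted p = 0.394) against all WT to 1.21 against replicates 1 to 4. Of 16 WNT ligands 1 rose and 5 fell, beside 10.6% and 6.66% of all genes, and 1 rose and 4 fell against replicates 1 to 4. *Wnt11*, at 1.61 to 2.57 CPM against 2.80 to 7.69, was lower by 1.41 against all WT and by 0.81 against replicates 1 to 4. *Wnt3a*, at 0.118 to 0.617 CPM against 0.592 to 1.96, was lower by 2.01 against all WT and by 1.56 against replicates 1 to 4. *Lefty1*, a Nodal inhibitor, measured 5.66 to 6.86 CPM against 8.29 to 35.6 (-1.74 ± 0.33), with a difference of -0.70 against WT replicates 5 to 8.

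Lineage genes moved in opposite directions. In bulk RNA, fewer cells of a type and less RNA per cell cannot be told apart. Of 19 primitive endoderm genes tested 8 fell and 1 rose, with a median of -0.72 beside 0.01 for all genes, beside 6.66% and 10.6% of all genes lower and higher. Against WT replicates 1 to 4 the counts were equal, but the gene that rose was *Pdgfra*, a receptor of that lineage (1.31, and 0.79 against all WT), in place of *Hnf4a*. The summed level went the other way. All 21 listed primitive endoderm genes summed to 1692 to 1735 CPM in QKO and 1397 to 1650 in WT, with no overlap. *Dab2*, an endocytic adaptor of that lineage, measured 0.196 to 0.343 CPM against 1.02 to 1.61 (-2.22 ± 0.28). *Gata4*, one of its defining factors, measured 1.57 to 2.23 CPM against 4.83 to 6.44 (-1.57 ± 0.14), whereas *Hnf4a*, active later in visceral endoderm and liver, rose by 1.10 ± 0.21 (0.99 against WT replicates 1 to 4). Of 14 trophectoderm genes, 4 rose and 2 fell, beside 10.6% and 6.66% of all genes. *Tfap2a*, a trophoblast and neural crest factor, measured 56.1, 54.4, 54.7 and 55.0 CPM against 15.7 to 19.7 (1.63 ± 0.08, adjusted p = 1e-19). *Gata3* measured 2.37 to 3.06 CPM against 0.387 to 0.654 (2.36 ± 0.22), and both were higher in QKO than in TKO (0.92 and 1.88), only *Gata3* past 2-fold. *Gata2* and *Ascl2* rose by 1.20 and 1.04 (*Ascl2* by 0.94 against WT replicates 1 to 4), while *Eomes* and *Krt18* fell by 1.45 and 1.70. *Grhl2*, an epithelial factor outside that list, measured 18.4 to 23.0 CPM against 2.85 to 4.24 (2.56 ± 0.10), and *Foxd3* 39.0 to 49.3 against 10.4 to 32.3 (1.34 ± 0.19, and 0.98 against WT replicates 5 to 8). *Cldn6*, an embryonic tight junction protein, fell by 1.96 ± 0.12.

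Most keratins tested fell. Of 13, 8 fell (6.66% of all genes did) and none rose (10.6% of all genes). The summed level of all 55 keratin genes in the annotation, tested or not, was 28.2 to 30.8 CPM in QKO against 80.2 to 109 in WT. Against TKO, 7 of the 13 were lower in QKO, beside 2.12% of all genes. A keratin passes the filter through a group where it is high, so these counts say nothing of the untested keratins. The cluster of type I keratins on chromosome 11 at 100 to 101 Mb was the window with most falling genes, 13 of 41. *Krt42*, the most abundant there, measured 1.40, 1.65, 1.69 and 1.20 CPM against 19.7 to 36.7 (-4.15 ± 0.21, adjusted p = 4.02e-20). *Krt16* and *Krt7*, keratins of stressed and of simple epithelium, were left with 4 and 7 reads over all QKO libraries, against 604 and 506 in WT. Among neural genes 7 of 15 fell and 2 rose, beside 6.66% and 10.6% of all genes. Against WT replicates 1 to 4, 4 fell and 3 rose, and the median moved from -1.58 to -0.33. *Sox11*, a factor of neural precursors, measured 0.942 to 1.34 CPM against 17.3 to 31.9 (-4.50 ± 0.18) and *Sox3* fell by 2.72 ± 0.37. *Pou3f2* went the other way, at 5.89 to 6.83 CPM against 0.411 to 1.05 (3.23 ± 0.24), and was higher than in TKO by 2.02.

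Genes of the germline and of retroelement defence were mixed. *Dnmt3l*, the cofactor of the de novo DNA methyltransferases, measured 110, 123, 109 and 107 CPM against 18.3 to 31.9 (2.28 ± 0.10, adjusted p = 2.46e-22), with means of 57.9 CPM in TKO and 171 in LBRKO. *Piwil2*, a PIWI protein, measured 21.8 to 24.4 CPM against 5.20 to 7.79 (1.81 ± 0.08), and *Sycp1*, of the synaptonemal complex, rose by 1.42 ± 0.15. *Tdrd5* and *Mov10l1*, both piRNA factors, fell by 2.59 and 1.23. Without QKO replicate 4 *Tdrd5* fell by 3.43, and against WT replicates 5 to 8 *Mov10l1* fell by 0.92. In the list 5 of 30 rose and 2 fell, shares near the 10.6% and 6.66% of all genes. *Tet2*, a 5-methylcytosine oxidase, measured 318 to 360 CPM against 140 to 212 (0.93 ± 0.14), under 2-fold against all WT and past it against replicates 1 to 4 (1.09). *Uhrf2*, a reader of hemimethylated DNA, fell by 1.00 ± 0.13, and by 0.58 against replicates 1 to 4.

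Innate immune genes did not rise together. Of 30 antiviral and interferon genes none rose and 6 fell, beside 10.6% and 6.66% of all genes. *Ifih1*, the sensor of long double-stranded RNA, was left with 4 reads over the QKO libraries (-4.10, and -5.40 without QKO replicate 1), and *Ifit2*, an interferon-induced gene, fell by 2.17 ± 0.21. The receptors of bacterial products included *Tlr2*, at 12.8 CPM or more in each QKO library against at most 4.60 (2.46 ± 0.19), and *Nod1*, the 2 of 6 that rose. That is 33.3%, beside 10.6% of all genes. Of 7 Schlafen genes 5 rose and none fell, beside 10.6% and 6.66% of all genes. *Slfn3* measured 4.83 to 5.49 CPM against 0.499 to 0.888 (2.80 ± 0.25) and *Slfn8* 16.4 to 19.4 against 5.80 to 7.18 (1.45 ± 0.13). *Slfn4* rose by 3.32 ± 0.54 from at most 0.152 CPM. These genes lie side by side and share sequence, so single members are uncertain. All 9 Schlafen genes listed, tested or not, summed to 104 to 113 CPM against 51.8 to 69.2. No gene of 21 p53 targets passed the thresholds, by edgeR, by DESeq2 or at an unadjusted p under 0.05. Of 22 cell cycle genes 1 fell (4.55%) and none rose. Of all genes 6.66% fell and 10.6% rose.

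Cholesterol synthesis, the pathway in which LBR also acts as an enzyme, had a lower summed level. The study reports that loss of LBR left cholesterol levels unaffected. The 25 genes tested summed to 2871 to 3067 CPM in QKO and 4164 to 4492 in WT, with a median log2 difference of -0.67. Past the thresholds 4 fell (16.0%) and none rose, beside 6.66% and 10.6% of all genes. For LBRKO against WT the median of these genes was 0.14, and none fell or rose. For TKO against WT it was -0.29, with 1 lower and none higher. The part of LBR in the lower level was not tested. *Insig1*, the sterol sensor partner, measured 104 to 116 CPM against 236 to 269 (-1.18 ± 0.08). *Idi1*, of isoprenoid synthesis, and *Tm7sf2*, a sterol reductase of the same step as LBR, fell by 1.01 and 1.00, close to the threshold, and by 0.94 and 0.90 against WT replicates 1 to 4. Other groups moved less uniformly. *Serpinh1*, a collagen chaperone, measured 18.5 to 20.2 CPM against 88.3 to 117 (-2.38 ± 0.09). Of 36 collagens 4 rose and 6 fell, beside 10.6% and 6.66% of all genes. Of 62 replication-dependent histone genes 9 fell and 1 rose, beside 6.66% and 10.6% of all genes, with *H2bc15* at 13.6 to 20.3 CPM against 43.0 to 110 (-2.41) and *H2bc14* at 17.0 to 47.1 against 79.6 to 132 (-1.96). *Lats2* and *Ccn1*, a kinase and a target of the YAP pathway, rose by 1.92 and 1.00 (*Ccn1* by 0.90 against WT replicates 5 to 8). Of 15 genes of that list 4 were higher and none lower, beside 10.6% and 6.66% of all genes. Against WT replicates 5 to 8, 2 were higher and none lower, and against replicates 1 to 4, 4 were higher and 2 lower.

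Olfactory and vomeronasal receptor genes, large silent families of gene-poor chromatin, were mostly below the filter. Of 1053 olfactory receptor genes, 37 were tested, and 18 of these rose and 1 fell. Of 354 vomeronasal receptor genes 13 were tested, and 8 rose and 1 fell. Of all genes tested 10.6% rose and 6.66% fell. A gene passes that filter through the group where it is high, so these counts say nothing of the untested members. *Or5b106* measured 1.33, 1.46, 0.982 and 2.13 CPM against at most 0.0761, *Or7g21* 2.83 to 5.18 against 0.0297 to 0.431 and *Vmn2r79* 1.07 to 2.95 against at most 0.355. *Cyp2b23*, a cytochrome P450 gene of a clustered family, measured 28.2 to 32.2 CPM against 1.74 to 2.98 (3.65 ± 0.14). Of 36 cytochrome P450 genes tested 7 rose and 6 fell, beside 10.6% and 6.66% of all genes.

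Y-linked genes did not move as a block. *Kdm5d*, an H3K4 demethylase, measured 18.7, 19.3, 17.8 and 21.3 CPM against 0.208 to 0.686 (5.41 ± 0.20), and *Uba1y*, a ubiquitin-activating enzyme, 72.7, 72.9, 72.5 and 74.0 against 4.21 to 6.03 (3.89 ± 0.10). *Zfy1*, a zinc-finger gene, rose by 3.47 ± 0.18, and *Zfy2* rose by 4.56 ± 0.62 on 54 reads in QKO and 5 in WT, and by 5.45 without WT replicate 3. Their neighbours changed far less. *Ddx3y* and *Uty*, widely expressed genes, differed by 0.90 ± 0.07 and 0.60 ± 0.08 with no overlap between groups, and *Eif2s3y* and *Usp9y* overlapped WT (0.22 and 0.25, adjusted p = 0.0578 and 0.44). *Kdm5d* and *Uba1y* were also higher in QKO than in TKO, by 3.50 and 2.32. Of 14 Y-linked genes tested in the annotation 8 rose (57.1%, beside 10.6% of all genes). Loss of the Y chromosome in part of the cells is described for WT and for TKO, and its part in these values was not tested.

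Imprinted genes moved both ways, with 6 of 37 higher and 5 lower, beside 10.6% and 6.66% of all genes. *Slc38a4*, a paternally expressed amino acid transporter, measured 26.0, 21.6, 26.9 and 25.5 CPM against 5.01 to 8.17 (1.80 ± 0.09). Its mean in TKO was 141 CPM, so QKO was lower than TKO by 2.49 on the log2 scale. *Slc22a18*, maternally expressed, measured 0.325 to 0.785 CPM against 3.33 to 5.00 (-2.95 ± 0.29). *Peg10*, a paternally expressed gene derived from a retrotransposon, measured 31.2 to 35.5 CPM against 49.5 to 136 (-1.47 ± 0.28), and differed by -0.79 from WT replicates 1 to 4.

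Markers of other cells a culture can hold stayed low. The 8 listed fibroblast markers summed to 2.92 to 4.41 CPM in QKO and 2.61 to 3.91 in WT, and the 7 listed blood markers to 4.87 to 6.45 and 7.86 to 13.3. The 16 listed genes of the 2-cell-like state, a rare state of mES cultures, summed to 0.153 to 0.552 CPM in QKO and 0.623 to 3.78 in WT. Of the 14 of them tested, 8 fell against all WT and 1 against replicates 1 to 4, beside 6.66% and 6.65% of all genes.

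A larger share of counts fell on TEs in QKO. When reads with up to 100 alignments were counted, TEs held 12.6 ± 0.999% of counts in QKO and 7.57 ± 0.963% in WT (SD), a difference of 5.03 percentage points (two-sided exact permutation test, p = 0.00404, the smallest the design allows, adjusted p = 0.00505). LINEs held 2.36% against 1.11%, SINEs 5.25% against 3.21%, and LTR elements 3.29% against 1.87%, each with the same exact p and with no overlap between groups. DNA transposons, which are old and immobile in mice, held 1.45% against 1.22% (exact p = 0.0889). Most of that class was a single family, FordPrefect, at a mean of 11100 CPM in QKO and 10300 in WT (0.10, adjusted p = 0.574). The other DNA transposons summed to 3060 ± 429 CPM in QKO and 1910 ± 446 in WT (SD), and their ranges overlapped. Reads far from genes were also denser. Copies of the ancient L2 and MIR elements at least 50000 bp from any gene, 17757 in number, took 13.6 ± 1.95 reads per Mb per 1000000 counts in QKO and 4.15 ± 1.43 in WT, a ratio of 3.27. TKO had 6.60 and LBRKO 4.97. WT replicate 7 had 7.33, the highest of the WT libraries, and the ratio was 3.67 without it, 4.07 against WT replicates 1 to 4 and 2.73 against 5 to 8.

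Of 1142 TE families tested, 287 rose (25.1%) and none fell (0.0%) by edgeR, nor by DESeq2 nor past 2-fold at an unadjusted p under 0.05, and 446 (39.1%) were higher in every QKO library than in every WT library. The families had a median log2 difference of 0.82, and 97.5% of them were above 0. Against WT replicates 1 to 4 the number was 537 (47.0%) and the median 1.00, against replicates 5 to 8 it was 193 (16.9%) and 0.68, and without WT replicate 7 it was 446. The 12 families of L2 and MIR had a median of 0.67 and none of them rose. Measured against that median, by an alternative chosen after seeing the data, 47 families exceeded it by over 2-fold and 1 lay that far under it, counting families with an adjusted p under 0.05 for the difference from WT. Of the 287, 45 rose by more than the ratio of 3.27 seen far from genes. How much of the general increase came from reads of unspliced or intergenic RNA was not tested.

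**Figure D5:**
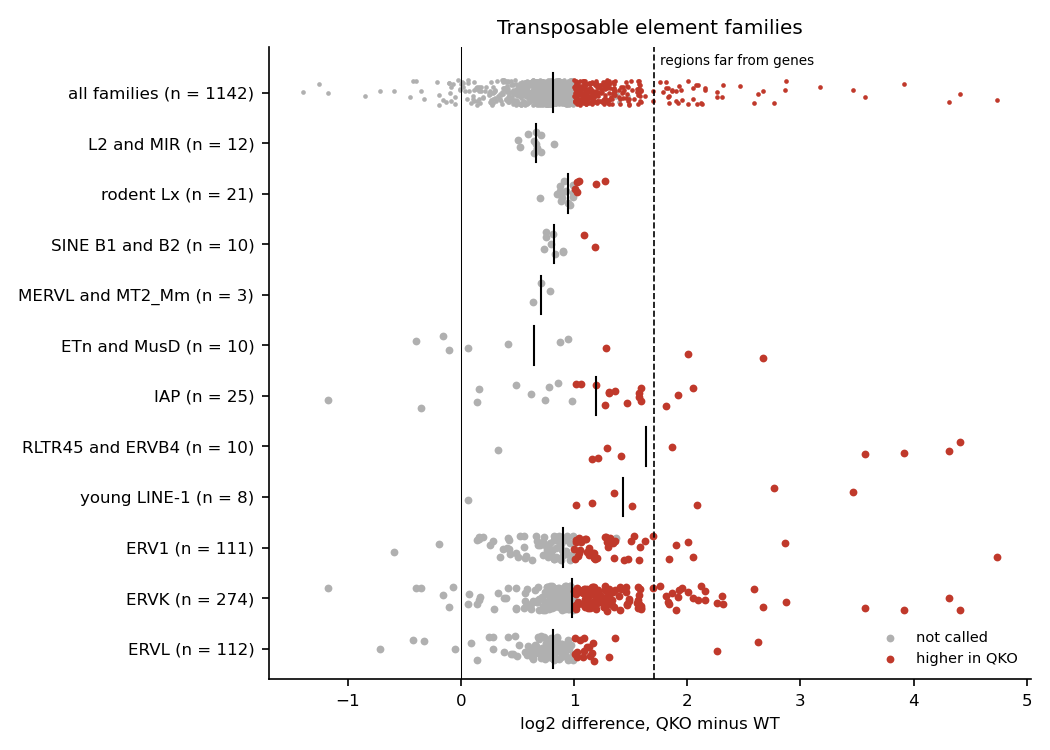
Log2 difference (QKO minus WT) of each TE family in 12 sets, with families that rose in red, the set median as a bar, and the ratio of reads far from genes as a dashed line at 1.71. All families together lie around 0.82, and a few young families of LINE-1, ERVK and ERV1 lie well to the right of the line.

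The families that stood farthest out were few. RLTR45-int, the internal part of an ERVK retrovirus, measured 1043, 1097, 1130 and 1103 CPM in QKO and 39.5 to 63.8 in WT (4.41 ± 0.13, adjusted p = 2.29e-27). ERVB4_2-I_MM, of the same class, measured 164, 187, 191 and 164 CPM against 8.85 to 14.2 (3.92 ± 0.11), and its relative ERVB4_3-I_MM rose by 4.31 ± 0.24. Of 10 RLTR45 and ERVB4 families 9 rose, beside 25.1% of all TE families. RLTR45-int and ERVB4_2-I_MM were higher in QKO than in TKO by 2.79 and 2.60, with TKO means of 158 and 29.0 CPM. MMERGLN-int, a gammaretrovirus-like ERV1, measured 97.5, 104, 102 and 103 CPM against 2.32 to 5.83 (4.73 ± 0.21) and did not differ from TKO past the thresholds (0.25, adjusted p = 0.454).

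Within the L1MdA lineage of LINE-1 the youngest member rose most. L1MdA_I, that member, measured 2762, 2479, 2398 and 2523 CPM against 148 to 356 (3.46 ± 0.15, adjusted p = 1.59e-21), L1MdA_II rose by 2.77 ± 0.13 and L1MdA_III by 1.51 ± 0.13. The order by number did not hold throughout, since L1MdA_IV rose by 2.13 (adjusted p = 3.31e-17). L1MdGf_I and L1MdTf_I, young families of other lineages, rose by 2.09 ± 0.13 and 1.16 ± 0.12 (L1MdTf_I by 0.98 against WT replicates 5 to 8), and L1MdTf_III stayed at 216 to 254 CPM against 187 to 341 (0.06, adjusted p = 0.725). In the table of reads with a single alignment, L1MdA_I copies summed to 1145 to 1232 CPM in QKO and 77.4 to 372 in WT. Copies with a mean of at least 0.5 CPM numbered 410 of 4683 in QKO, 273 in TKO, 10 in LBRKO and 10 in WT. L1MdA_I was already high in TKO, with a mean of 1941 CPM, and the QKO value did not differ from it past the thresholds (0.39, adjusted p = 0.107).

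Other families known from preimplantation embryos and silencing mutants differed among themselves. ETnERV3-int and ETnERV2-int rose by 2.67 ± 0.14 and 2.01 ± 0.13, while the abundant ETnERV-int measured 1477 to 1530 CPM against 1802 to 2131 (-0.40 ± 0.05) and MMETn-int overlapped WT (-0.10). IAPEy-int rose from 16.7 to 28.8 CPM in WT to 75.1 to 85.4 in QKO (1.81 ± 0.13). IAPEz-int and IAPLTR1_Mm, the most active intracisternal A particles, overlapped WT (0.16 and 0.15, adjusted p = 0.089 and 0.122). Of 25 IAP families 15 rose, beside 25.1% of all TE families. MERVL-int and MT2_Mm, the retrovirus of 2-cell embryos and its LTR, differed by 0.79 and 0.71, close to L2 and MIR, and MERVL-int passed the threshold against WT replicates 1 to 4 (1.14). Of 10 B1 and B2 families 2 rose, a share near the 25.1% of all TE families. These were B2_Mm1a, by 1.18 ± 0.18, and B2_Mm1t, by 1.09 ± 0.13, and by 0.92 and 0.94 against WT replicates 1 to 4. GSAT_MM, the major satellite of centromeric heterochromatin, measured 2.69 to 4.21 CPM against 2.09 to 3.51 (0.27, adjusted p = 0.288). RLTR13C2 measured 348 CPM in QKO replicate 1 and 49.6 to 54.0 in the other QKO libraries, so its log2 difference of 2.87 ± 0.69 rests on 1 library (1.60 without it, a call lost), and RLTR13D6 rose by 1.14 ± 0.11.

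Against TKO, 51 TE families were higher in QKO (4.47%) and none was lower, with a median of 0.57. Against LBRKO, 143 were higher (12.5%) and 1 was lower (0.0876%), with a median of 0.50. Reads far from genes were 2.06 times as dense in QKO as in TKO.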

How the data were processed

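The tables of gene counts and TE counts were used as deposited by the authors, without normalization. Per the submitters' processing notes and the study's methods, reads were trimmed (cutadapt 2.5), aligned to GRCm39 (STAR 2.7.10a) and counted over genes and single TE copies by unique alignment (featureCounts 1.6.4), and genes with TE families by TEcount, with up to 100 alignments per read. Whether counting used strand is not given in the sources used here. Gene names, types and positions are from GENCODE M39 on GRCm39, matched to 56017 of 56748 identifiers.

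All 40 libraries entered 1 model with a mean for each of 8 groups (edgeR 4.0.16 quasi-likelihood test, TMM, filterByExpr, R 4.3.3), and genes and TE families were fitted together for families. WT replicates 1 to 4 and 5 to 8 were given separate means in a further fit. CPM are counts over TMM-scaled totals. Shares of counts on TEs were compared by exact permutation over libraries. On simulated 4-fold changes of 200 features the gene step, run on 19537 genes, recovered 92.5% and called 2 unchanged genes, and the step with TE families, run on 22645 features, recovered 88% and called 4. No pair of replicate libraries agreed within sampling noise, the lowest chi-square being 5.48 per gene.

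The members, lists and tests were chosen with earlier results of these data known, and lists are described by counts and medians without a test. The genes named were the targeted genes and markers, the 10 highest and 10 lowest folds and the 10 most abundant in each direction (called against all WT and WT 1 to 4, no overlap, at least 5 CPM, no clone name), and list members with the largest changes, apart from some genes that are not reported here. *Pou5f1*, *Sox2*, *Gata4*, *Mirg*, *Meg3*, *Rian*, *Id3*, *Pdgfra*, FordPrefect, L1MdA_IV and the 5 genes under other observations were named after their values were seen. A check of promoter CG content over all changed genes was void, because fewer than 80% of them had a promoter sequence. Alternatives were DESeq2 1.42.0, other scalings and filters, a test against 2-fold, leaving out each library, and a replicate block.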

Additional observations from a re-analysis of the deposited data

Results flagged for a closer look

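Each value named in the report was examined for a library standing apart from the others of its group (Dixon's test at 95%), in 322 sets of libraries, of which 38 (11.8%) had such a library. Chance gives about 1 in 20. WT replicate 7 accounted for 23 of the 38, WT replicate 8 for 3, WT replicate 4 for 1, and QKO replicates 1 to 4 for 3, 3, 2 and 3.

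WT replicate 7 held the highest WT value of *Egr1* (913 CPM), *Fos* (122), *Tbx3* (267), *Klf4* (254), *Foxd3* (32.3), *Lats2* (3.17), *Sycp1* (3.55), *Mirg* (51.1) and *Xist* (12.7). It was also highest for L1MdA_II (108 CPM), L1MdA_III (167), L1MdGf_I (157), L1MdTf_III (341), ETnERV3-int (18.8), ETnERV2-int (49.9), MERVL-int (101), MIRb (665) and L2a (522). Its share of counts was 9.84% on all TEs, 1.59% on LINEs, 4.16% on SINEs and 2.5% on LTR elements, and its reads far from genes were 7.33 per Mb per 1000000 counts. Immediate early genes and TE reads therefore stood out in the same library. Whether they have a shared source was not tested, and the labels do not set that library apart.

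In QKO, RLTR13C2 stood at 348 CPM in replicate 1, *Serpina3m* at 6.30 and *Ptk7* at 117 in the same library. In replicate 2 *Platr15* stood at 27.8 CPM, *Fos* at 6.97 and *Tm7sf2* at 20.8. In replicate 3 *Lmnb2* stood at 3.77 CPM and *Or7g21* at 5.18. In replicate 4 *Sox11* stood at 1.34 CPM, *Tdrd5* at 0.549 and *H2bc14* at 47.1. In WT replicate 8 *Rps3a1* stood at 886 CPM, *Insig1* at 269 and *Eif2s3y* at 65.9, and in WT replicate 4 *H2bc15* stood at 43.0 CPM.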

How the results depend on the processing

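Testing against a 2-fold change (edgeR's glmTreat) left 741 genes higher, 769 lower and 71 TE families higher, and a floor of 1 CPM in 4 libraries left 1422 genes higher. TE families higher numbered 537 against WT replicates 1 to 4, 657 in QKO 1 to 4 and WT 1 to 4 alone with a replicate block and 662 without it, and 47 beyond the median of L2 and MIR. Same-numbered wells share only a number (correlations of deviations 0.033, 0.069, -0.005 and -0.012). The replicate block gave 2538 genes higher and 1456 lower, and 2678 and 1512 without it. Under it, the differences in the share of counts on all TEs, LINEs, SINEs and LTR elements were 5.41, 1.33, 2.05 and 1.55 percentage points, each with an exact p of 0.125, the smallest it allows. The difference for DNA transposons passed 0.05 against WT replicates 1 to 4 (0.382 points, exact p = 0.0286). Without each library in turn it ran from 0.164 to 0.277 points, passing without WT replicate 8 (0.272, exact p = 0.0303), genes higher ran from 2221 to 2783, genes lower from 1484 to 1563, and TE families higher from 223 to 446, the last without WT replicate 7. DESeq2 gave 2518 genes higher, 1547 lower and 339 TE families higher. Against WT replicates 1 to 4, with the block and without it, *Gbx2* differed by 0.19, 0.18 and 0.19, *Sp5* by 0.12, 0.11 and 0.12, and *T* by 1.23 each time, opposite in sign to all WT. The cause was not tested. Of 107 named genes called, 75 were called under all alternatives and 32 lost the call under at least 1. Of 20 named TE families called, 15 were called under all of them. Genes under 0.1 CPM rest on few reads, and intervals there would cover counting error only.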

Other observations

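The gene with the largest fold of all was an unnamed lncRNA. *Gm42047* (chromosome 8, 122559986 to 122567917, plus strand, GRCm39) measured 451, 508, 466 and 451 CPM in QKO and at most 0.131 CPM in WT. Its mean was 445 CPM in TKO and 0.0106 in LBRKO, and QKO did not differ from TKO past the thresholds (0.07, adjusted p = 0.622). *Gm7240*, a pseudogene on chromosome 13, measured 41.9 to 47.3 CPM in QKO and at most 0.592 in WT, with a mean of 23.6 in TKO.

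At the other end were genes without a read in any QKO library. *Ubd*, a ubiquitin-like protein induced by inflammatory cytokines, measured 2.21 to 3.80 CPM in WT and was at least 105-fold lower in QKO, counting the limit as 3 reads over the group. *H2-T3*, a class Ib histocompatibility gene with near copies, measured 1.70 to 3.37 CPM in WT and was at least 91.2-fold lower. Both were at 0 in TKO too. *Kcnh8*, a potassium channel, measured 1.04 to 2.79 CPM in WT and was at least 70.4-fold lower. TKO kept *Kcnh8* at a mean of 0.304 CPM, and QKO was lower than TKO (adjusted p = 5.72e-05). *H2-T3* and *H2-T5* are among 10 of 36 tested genes that fell on chromosome 17 at 36 to 37 Mb. These 5 genes were chosen after their values were seen.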
